A study of Mus musculus with 20 samples.

Results

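The RNA of mouse embryonic stem (ES) cells depleted of p150, the largest protein of CAF-1 (chromatin assembly factor 1), was compared with that of the embryoid bodies (EB) they formed. The comparison rests on 4 RNA-seq libraries of knockout cells, 2 of ES cells and 2 of EB, from a series of 20 samples. All genes with at least 1 FPKM (a fragment count scaled by transcript length and by library size) in at least 2 of those 4 libraries were described, which gave 13891 of the 15428 genes fitted and of the 53560 genes and loci in the deposited table. The cells were the TL1 mouse ES line, and CRISPR/Cas9 was used to deplete p150, which the gene Chaf1a encodes. ES cells were grown in serum-containing medium with the cytokine LIF, and EB were made from them by culture in the ES medium without LIF. The 4 libraries of wild type TL1 cells, 2 of ES and 2 of EB under the same conditions, are used here only to place the knockout change beside the wild type change. The labels give no day of EB culture, and they do not say whether the knockout is a single clone or whether the 2 libraries of a group came from separate cultures, so the p-values reflect only how far these libraries differ, and that may be technical.

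CAF-1 deposits histones H3 and H4 on newly copied DNA, so that chromatin is rebuilt behind the replication fork. LIF holds mouse ES cells in an undifferentiated state through the kinase JAK, the transcription factor STAT3 and STAT3's targets, beside the core factors OCT4 (Pou5f1), SOX2 and NANOG. Without LIF, aggregated ES cells leave that state, pass through stages that resemble the epiblast and the primitive streak, and give rise to endoderm, mesoderm with blood, vessel and heart cells, and other lineages. The comparison asks which of these steps was seen in the RNA of knockout cells.

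Summed FPKM ran from 705922 to 782026 in the 4 knockout libraries and from 641813 to 727489 in the 4 wild type libraries. The table holds no read counts, so the depth behind a value is not known, and values near 1 FPKM are the least certain. Chaf1a itself read 48.1 and 38.0 FPKM in ES and 31.6 and 35.0 FPKM in EB of knockout cells and 49.5 and 43.0 FPKM in ES and 31.7 and 32.1 FPKM in EB of wild type. A gene-level FPKM does not show where a CRISPR lesion lies, so this is no check of the knockout. The 4 knockout libraries held the ES factors that define the line, given with their values below. In bulk RNA, fewer cells of a type and less RNA per cell cannot be told apart.

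Knockout cells changed widely as they formed EB. Of the 13891 genes, 2544 were higher in EB and 1819 were lower, 18.3% and 13.1% of those described, by limma on log2(FPKM + 1) with all 8 RNA libraries in the fit and an adjusted p under 0.05 by Benjamini-Hochberg over the 15428 genes fitted. By at least 2-fold, 1130 of the higher and 654 of the lower genes changed, and by at least 8-fold, 55 and 20. The median log2 change over all genes described was 0.05. Of the calls, 58.3% were higher. Scaling each library to the same total moved this to 46.3%, with 1970 higher and 2281 lower genes and a median of -0.04, and quantile normalization gave 2188 and 2232, so the balance of rises and falls rests on the scaling. The counts dropped when a knockout library was left out, from 2544 to 1371 higher and from 1819 to 911 lower without ES knockout replicate 1, to 1649 and 998 without EB knockout replicate 1, and to 1447 and 919 without EB knockout replicate 2. Without ES knockout replicate 2 they were 1652 and 1238. The 608 genes that reached 1 FPKM in EB alone and the 412 that did so in ES alone had to be high in that group, and they hold 491 of the higher and 268 of the lower calls.

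**Figure D1:**
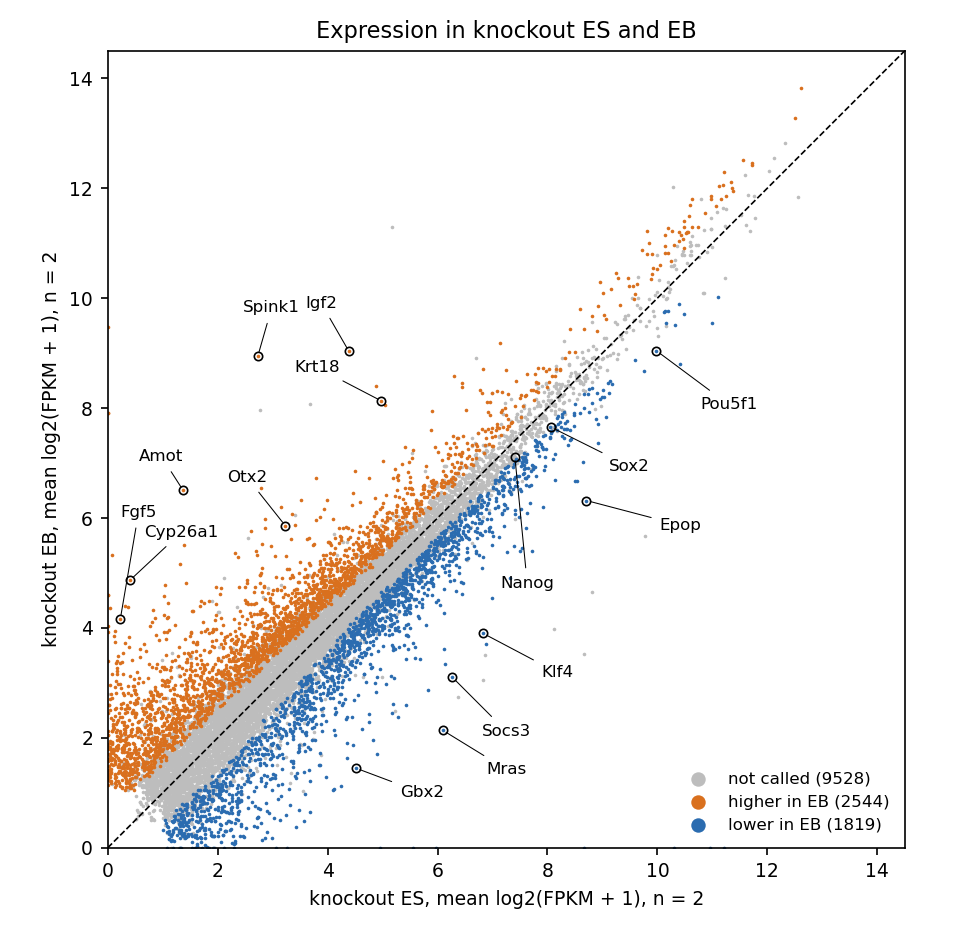
Mean expression of each of the 13891 genes in knockout ES (x axis) and knockout EB (y axis), both as log2(FPKM + 1) and as means of 2 libraries, with genes higher in EB in orange, lower in blue and not called in grey. Igf2 and Spink1 lie far above the diagonal at high EB levels, Socs3, Klf4 and Mras lie far below it, and Pou5f1, Sox2 and Nanog lie near it.

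The clearest losses were of the LIF pathway. Of 15 genes of the LIF and STAT3 pathway described, 8 fell and 2 rose, against 13.1% lower among all genes, and the list's median log2 change was -0.92. The same count of 8 was called lower when any single library was left out. Socs3, the STAT3-induced feedback inhibitor of the pathway, measured 77.5 and 74.8 FPKM in ES and 10.1 and 5.64 FPKM in EB, a log2 change of -3.17 ± 0.24 (SE, adjusted p = 0.000791). Klf4, a STAT3 target and reprogramming factor, measured 124 and 102 FPKM in ES and 17.9 and 10.9 FPKM in EB, a change of -2.92 ± 0.27 (SE, adjusted p = 0.00134). Both EB libraries lay far below both ES libraries for each gene. Bcl3, which encodes an IκB family coregulator, had 44.3, 32.0, 5.10 and 3.44 FPKM in the order ES 1, ES 2, EB 1 and EB 2 (-2.89), and Gbx2, a homeobox gene downstream of STAT3, had 32.3, 14.8, 1.77 and 1.69 FPKM in that order (-3.07). Stat3 itself fell by less, with 39.0 and 37.5 FPKM in ES and 14.4 and 14.3 FPKM in EB (-1.36 ± 0.14 SE, adjusted p = 0.00167). Tfcp2l1, Pim3 and Junb were also lower, with log2 changes of -0.93, -1.10 and -0.92. The kinase gene Jak2 rose, with 1.13 and 0.878 FPKM in ES and 4.54 and 4.08 FPKM in EB (1.41 ± 0.17 SE, adjusted p = 0.00226). Jak1 passed the test as well (0.54 ± 0.15 SE, adjusted p = 0.0334). That call was lost in 6 of the 8 fits that left out a library, with adjusted p of 0.119 leaving out ES knockout replicate 1, 0.0837 leaving out ES knockout replicate 2, 0.0976 leaving out EB knockout replicate 1, 0.117 leaving out EB knockout replicate 2, 0.0605 leaving out EB wild type replicate 1 and 0.0604 leaving out EB wild type replicate 2. The receptor genes Lifr and Il6st and the ligand gene Lif were not called.

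The large falls outside that list were of several kinds of gene. Mras, which encodes a RAS-like GTPase, measured 68.9 and 65.5 FPKM in ES and 4.13 and 2.79 FPKM in EB (-3.95 ± 0.16 SE, adjusted p = 0.000192), the largest fall among the genes that met the rule for naming. Next came Tgm1, the transglutaminase of epidermal cornification, at 31.3 and 26.5 FPKM in ES and 3.50 and 1.34 FPKM in EB (-3.20 ± 0.29 SE, adjusted p = 0.00131). Every gene of the 15 largest falls had both EB libraries below both ES libraries, and each call held when any single library was left out. Others of these were Pcolce, Klk10, Syce1, Cobl, Gli1, Laptm5, Cltb and Krt42, with log2 changes from -3.16 to -2.72. Syce1 encodes a protein of the meiotic synaptonemal complex, Gli1 the hedgehog-responsive transcription factor and Cltb a clathrin light chain. Gli1 measured 24.6 and 30.2 FPKM in ES and 3.04 and 2.74 FPKM in EB.

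STAT proteins bind a palindrome with the core TTCNNNGAA, so the 250 bases before the RefSeq start (GRCm38.p6, the build that mm10 names) were searched for it on both strands. It was found in 4 of the 13 promoters that were given among the 15 largest falls (Tgm1, Socs3, Klk10 and Krt42). It was also in 2 of the 10 given among the 15 largest rises (Ctla2a and Amot). With the first entry used for each gene, 7.18% of the 27025 promoters in the table held it. Among protein-coding genes described, the share was 5.62% of 9292 promoters given, and 5.70% of the 1229 for genes called lower. Of the 49 for genes lower by at least 4-fold, which overlap the 15 largest falls, 18.4% held it. Promoters were missing for part of each class, so no difference between classes was drawn from these shares. Within the LIF and STAT3 list only Socs3 of the 15 held a match in this window. The motif and the genes shown were chosen after their values were seen, and a match describes the letters alone. The 3 promoters below are shown because their genes are among the largest falls and hold the core, which is in capitals. They are read 5′ to 3′ on the minus strand, and lie at chr11:117969367-117969616 (Socs3), chr14:55713493-55713742 (Tgm1) and chr11:100269952-100270201 (Krt42).
Socs3: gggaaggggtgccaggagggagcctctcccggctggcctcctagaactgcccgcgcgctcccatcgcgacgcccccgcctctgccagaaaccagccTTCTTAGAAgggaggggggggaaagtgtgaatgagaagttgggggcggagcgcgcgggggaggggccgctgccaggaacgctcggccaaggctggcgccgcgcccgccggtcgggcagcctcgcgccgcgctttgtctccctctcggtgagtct
Tgm1: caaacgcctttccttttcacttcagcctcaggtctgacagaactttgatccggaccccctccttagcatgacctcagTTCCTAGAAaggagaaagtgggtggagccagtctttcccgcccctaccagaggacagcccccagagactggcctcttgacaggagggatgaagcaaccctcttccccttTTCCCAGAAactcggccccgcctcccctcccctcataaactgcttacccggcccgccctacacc
Krt42: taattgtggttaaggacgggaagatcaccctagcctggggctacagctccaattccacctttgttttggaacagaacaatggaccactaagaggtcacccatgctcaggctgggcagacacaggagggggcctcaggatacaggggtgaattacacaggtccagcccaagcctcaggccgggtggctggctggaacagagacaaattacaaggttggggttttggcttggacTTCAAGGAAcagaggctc
The core began 154 bases before the start in Socs3, 173 and 64 bases before it in Tgm1 and 18 bases before it in Krt42. These distances are to the RefSeq start. The loci deposited with the FPKM values reach past it for Socs3 (to 117970050) and Tgm1 (to 55713926), so those windows lie inside the loci. The window of Amot also lies inside its locus, which reaches 145505180.

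The core pluripotency factors remained above 100 FPKM in every knockout library. Pou5f1 measured 1074 and 946 FPKM in ES and 547 and 508 FPKM in EB, a log2 change of -0.93 ± 0.26 (SE, adjusted p = 0.0341). The call was lost without each of 6 libraries, with adjusted p of 0.137 leaving out ES knockout replicate 1, 0.0808 leaving out ES knockout replicate 2, 0.0985 leaving out EB knockout replicate 1, 0.135 leaving out EB knockout replicate 2, 0.0559 leaving out ES wild type replicate 1 and 0.0558 leaving out ES wild type replicate 2. Sox2 measured 250.5 and 281 FPKM in ES and 227 and 178 FPKM in EB (-0.40 ± 0.20 SE, adjusted p = 0.182). Nanog measured 167 and 171 FPKM in ES and 168 and 112 FPKM in EB (-0.30 ± 0.29 SE, adjusted p = 0.472); neither passed the test. The EB and ES values overlapped for Nanog and were separate for Sox2. Esrrb, an orphan nuclear receptor of naive cells, measured 149 and 163 FPKM in ES and 106 and 76.2 FPKM in EB (-0.79 ± 0.25 SE, adjusted p = 0.0555), also without a call. Of the 38 naive pluripotency genes described, 19 fell, 50% against 13.1% over all genes, and none rose, with a median of -0.83. Without EB knockout replicate 2, 11 of them were called lower. Apart from Socs3, Klf4 and Stat3, the falls that held in every fit were of Klf5 (-1.24), Myc (-1.22), Tet2 (-1.12), Sall4 (-1.11), Gdf3 (-1.01), Sall1 (-0.98), Tfcp2l1 and Trim28 (-0.71). Klf5 measured 115 and 138 FPKM in ES and 57.4 and 48.8 FPKM in EB, and Sall4, a zinc finger partner of OCT4, 152 and 136 FPKM in ES and 61.1 and 71.5 FPKM in EB. In both, the EB level was well under the ES level but far from 0.

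Beside these standing levels, genes of the next, formative stage came on. Fgf5, the classical marker of the primed epiblast, measured 0.194 and 0.153 FPKM in ES and 11.3 and 25.3 FPKM in EB (3.94 ± 0.37 SE, adjusted p = 0.00137). Otx2, the transcription factor that directs the exit towards that state, measured 8.54 and 8.22 FPKM in ES and 50.4 and 64.8 FPKM in EB (2.63 ± 0.15 SE, adjusted p = 0.000412). Both genes were separate between ES and EB in all libraries, and EB knockout replicate 2 was the higher EB library for both. Cer1, a secreted antagonist of Nodal, BMP and Wnt, also rose, though it is not particular to this stage. It measured 0.0977 and 0.0916 FPKM in ES and 6.68 and 22.2 FPKM in EB (3.61 ± 0.53 SE, adjusted p = 0.00456). Of 24 formative and primed genes described, 9 rose and 4 fell, and the median was 0.63. These shares were 37.5% and 16.7%, against 18.3% higher and 13.1% lower over all genes, so the share of falls was near that of all genes. Foxd3 and Etv4 were the largest of the falls, with 54.9 and 46.0 FPKM in ES and 9.65 and 10.1 FPKM in EB for Foxd3 (-2.24) and 99.0 and 47.6 FPKM in ES and 12.0 and 10.5 FPKM in EB for Etv4 (-2.51). Dnmt3b, the de novo methyltransferase of the epiblast, had 145 and 145 FPKM in ES and 142 and 188 FPKM in EB and was not called (0.17 ± 0.18 SE, adjusted p = 0.511).

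FGF and Nodal signalling genes moved in both directions. In the FGF pathway 9 of 24 genes rose and 5 fell, 37.5% and 20.8%, against 18.3% higher and 13.1% lower over all genes. Fgf8, a ligand of the streak, measured 0.164 and 0.227 FPKM in ES and 6.65 and 13.3 FPKM in EB (3.13 ± 0.29 SE, adjusted p = 0.00135). The phosphatase gene Dusp4, a feedback target of ERK, measured 7.69 and 3.26 FPKM in ES and 47.0 and 60.3 FPKM in EB (3.16 ± 0.34 SE, adjusted p = 0.00193). Fgf10, Fgf15 and Fgf3 rose by 2.29, 1.56 and 1.46 on the log2 scale, and Fgf17 (-2.22), Egr1 (-1.79) and Etv4 fell. The falls numbered 3 without ES knockout replicate 1. In the Nodal and activin pathway 5 of 20 rose and 5 fell, 25% each, against the same 18.3% and 13.1%. Inhbb, which encodes an activin subunit, fell to under 1 FPKM, with 11.2 and 8.40 FPKM in ES and 0.362 and 0.247 FPKM in EB (-3.04 ± 0.19 SE, adjusted p = 0.000489). Gdf1 and Gdf3, ligands related to Nodal, fell with log2 changes of -1.71 and -1.01, and Nodal with -0.88. The antagonist genes Cer1 and Fst (1.97) and the protease gene Furin (1.47) rose.

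Genes of the primitive streak and early mesoderm rose together. Of 21 described, 14 rose and 1, Tcf15, fell, with a median of 1.32, beside 0.05 over all genes. T (Brachyury), the factor that defines the streak, measured 0.224 and 0.0900 FPKM in ES and 3.58 and 5.56 FPKM in EB (2.25 ± 0.21 SE, adjusted p = 0.00137). Eomes, which precedes endoderm and cardiac mesoderm, measured 1.66 and 0.753 FPKM in ES and 11.1 and 19.2 FPKM in EB (2.86 ± 0.45 SE, adjusted p = 0.00556). Lhx1 and Gsc, genes of the anterior streak and organizer, measured 0.177 and 0.0837 FPKM in ES and 4.96 and 12.4 FPKM in EB for Lhx1 (2.98) and 0.191 and 0.0448 FPKM in ES and 2.23 and 6.07 FPKM in EB for Gsc (2.10). Mixl1 rose by 1.53 and Hand1 by 2.78. Wnt3, the ligand that starts the streak, rose by 1.63 and held in every fit. All of these were under 3 FPKM in ES and over 1 in both EB libraries, with EB knockout replicate 2 the higher, and without that library 9 of the 21 were called higher. Tcf15, a factor of cells leaving naive pluripotency that is also expressed in paraxial mesoderm, measured 109 and 70.1 FPKM in ES and 26.0 and 28.5 FPKM in EB (-1.65 ± 0.30 SE, adjusted p = 0.00854).

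Targets and ligands of Wnt and BMP were part of this rise. In the Wnt list 8 of 17 rose and 4 fell, 47.1% and 23.5%, against 18.3% and 13.1% over all genes. The antagonist gene Dkk1 measured 0.200 and 0.0417 FPKM in ES and 7.28 and 12.4 FPKM in EB (3.24 ± 0.26 SE, adjusted p = 0.000895). The receptor gene Lgr5 measured 0.0542 and 0.0267 FPKM in ES and 1.12 and 1.57 FPKM in EB (1.16). The rises numbered 4 without either ES knockout library and 5 without EB knockout replicate 2. Among the falls were Sfrp2 (-1.34), a secreted Wnt antagonist, and the repressor gene Tcf7l1 (-0.72). Of 16 BMP ligands and targets, 7 rose, 43.8% against the same 18.3%, and none fell. Bmp2 was among them, at 0.147 and 0.0686 FPKM in ES and 6.79 and 7.55 FPKM in EB (2.88 ± 0.17 SE, adjusted p = 0.000412), with the targets Msx1 (2.43), Msx2 (2.06) and Id4 (1.36).

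Endoderm factors were the list with the highest share of rises among those with at least 10 genes described, 94.1% against 18.3% over all genes. The list also holds Epcam and Otx2, given above with the formative stage, and Gata4 counts in the heart list below. Of 17 described, 16 rose and none fell, with a median of 1.76, and from 12 to 15 rose when a single library was left out. Sox17, a definitive and extraembryonic endoderm factor, measured 1.40 and 0.374 FPKM in ES and 11.2 and 26.1 FPKM in EB (3.32 ± 0.44 SE, adjusted p = 0.00326). Foxa2, the pioneer factor of endoderm, measured 0.563 and 0.779 FPKM in ES and 5.67 and 9.96 FPKM in EB (2.36 ± 0.27 SE, adjusted p = 0.00214). Gata4 measured 1.41 and 0.866 FPKM in ES and 11.4 and 25.7 FPKM in EB (3.10 ± 0.35 SE, adjusted p = 0.00214). Hnf4a (1.86), Hhex (1.76), Foxa1 (1.69) and Cxcr4 (2.88) also rose. Gata6 rose as well (1.51 and 0.698 FPKM in ES and 4.24 and 10.2 FPKM in EB, 1.89 ± 0.40 SE, adjusted p = 0.0147), but not without 2 of the libraries, where its adjusted p was 0.0684 leaving out ES knockout replicate 2 and 0.0598 leaving out EB knockout replicate 2. The proteins that visceral endoderm secretes or transports followed, with 12 of 18 higher, 1 (Amn) lower and a median of 1.08. Ttr, the thyroxine carrier transthyretin, measured 0.200 and 0.377 FPKM in ES and 12.6 and 31.3 FPKM in EB (4.03 ± 0.37 SE, adjusted p = 0.00131). Apoa1, the main protein of high-density lipoprotein, measured 0 and 0.175 FPKM in ES and 7.42 and 23.5 FPKM in EB (3.73 ± 0.44 SE, adjusted p = 0.00237). Apoe was abundant in both states and still rose (583 and 665 FPKM in ES and 1260.1 and 1368 FPKM in EB, 1.07 ± 0.16 SE, adjusted p = 0.00473). Rbp4 (2.90) and Dab2 (2.83), the retinol carrier and an endocytic adaptor, completed the group with the largest changes. Afp, the fetal albumin-like protein, measured 0.335 and 0.316 FPKM in ES and 3.59 and 15.6 FPKM in EB (2.72 ± 0.59 SE, adjusted p = 0.0155). That call was lost with adjusted p of 0.0653 leaving out ES knockout replicate 1 and 0.0594 leaving out ES knockout replicate 2. In each of Sox17, Foxa2, Gata4, Ttr and Apoa1, EB knockout replicate 2 had the higher level.

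Vessel genes came on at low levels. In the blood and endothelium list 12 of 24 rose, 50% against 18.3% over all genes, with a median of 1.51. Cdh5, the endothelial cadherin, measured 0.181 and 0.0726 FPKM in ES and 4.82 and 14.0 FPKM in EB (3.05 ± 0.44 SE, adjusted p = 0.00423). The VEGF receptor gene Flt1 measured 0.382 and 0.635 FPKM in ES and 8.10 and 15.5 FPKM in EB (3.03 ± 0.30 SE, adjusted p = 0.00160). Cd34 (2.23), Icam2 (2.18), Lmo2 (2.13), Runx1 (1.56) and Ramp2 (2.66) rose too. The embryonic globin gene Hbb-bh1, whose reads may be shared with its close relatives, measured 2.02 and 0.383 FPKM in ES and 21.9 and 14.7 FPKM in EB (3.21 ± 0.71 SE, adjusted p = 0.0164). It lost its call with adjusted p of 0.0769 leaving out ES knockout replicate 2, 0.0795 leaving out EB knockout replicate 1 and 0.0578 leaving out EB knockout replicate 2. Hba-x, the embryonic alpha-like globin gene, measured 1.05 and 0.141 FPKM in ES and 4.16 and 6.23 FPKM in EB and was not called (2.00 ± 0.64 SE, adjusted p = 0.0550). Epor, the erythropoietin receptor gene, was the 1 member called lower (3.55 and 4.14 FPKM in ES and 1.72 and 2.40 FPKM in EB, -0.67 ± 0.18 SE, adjusted p = 0.0315). Of the 8 fits that left out a library 7 lost that call, with adjusted p of 0.0726 leaving out ES knockout replicate 1, 0.123 leaving out ES knockout replicate 2, 0.118 leaving out EB knockout replicate 1, 0.0505 leaving out ES wild type replicate 1, 0.0509 leaving out ES wild type replicate 2, 0.0558 leaving out EB wild type replicate 1 and 0.0558 leaving out EB wild type replicate 2.

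Heart genes separated the EB libraries from each other. Of the 19 heart factors and sarcomere genes described, 6 rose, 31.6% against 18.3% over all genes, and none fell. The rises that held in every fit were of the transcription factor genes Gata4 and Hand2, the slow troponin gene Tnni1 and the tropomyosin gene Tpm1. Hand2 measured 0.138 and 0.0432 FPKM in ES and 3.21 and 12.8 FPKM in EB (2.80 ± 0.48 SE, adjusted p = 0.00733). Tnni1 measured 0.454 and 1.08 FPKM in ES and 7.64 and 33.1 FPKM in EB (3.30 ± 0.57 SE, adjusted p = 0.00766). Tpm1, already abundant in ES, measured 105 and 118 FPKM in ES and 294 and 322 FPKM in EB (1.46 ± 0.15 SE, adjusted p = 0.00181). Other sarcomere genes were high in a single EB library. Actc1, cardiac actin, measured 2.34 and 1.45 FPKM in ES and 1.15 and 58.2 FPKM in EB (1.98 ± 1.29 SE, adjusted p = 0.282). Tnnt2, cardiac troponin T, measured 1.16 and 1.34 FPKM in ES and 2.80 and 35.2 FPKM in EB (2.38 ± 0.88 SE, adjusted p = 0.0832). Myl7, the atrial myosin light chain, measured 2.59 and 4.23 FPKM in ES and 9.03 and 88.5 FPKM in EB (2.79 ± 0.91 SE, adjusted p = 0.0568). The ventricular myosin light chain genes Myl2 (0.947 and 1.03 FPKM in ES and 1.88 and 39.0 FPKM in EB, 2.43 ± 1.05 SE, adjusted p = 0.123) and Myl3 (1.13 and 1.31 FPKM in ES and 2.22 and 21.7 FPKM in EB, 1.94 ± 0.77 SE, adjusted p = 0.0997) had the same form. For these 5 genes EB knockout replicate 1 was under 10 FPKM and replicate 2 over 20 FPKM, and none was called. Over the list, 9 of 19 were at least 4-fold higher in replicate 2 than in replicate 1, with a median log2 ratio of 1.98. Over all genes described 0.727% differed by at least 4-fold between the EB libraries and 0.396% between the ES libraries, and the median absolute log2 ratio was 0.18 and 0.21. Without EB knockout replicate 1, 14 of the heart genes were called higher. The fetal growth genes Dlk1 (1.93 and 3.71 FPKM in ES and 6.41 and 66.6 FPKM in EB) and Igfbp5 (0.313 and 0.311 FPKM in ES and 4.93 and 33.3 FPKM in EB) and the collagen gene Col3a1 (0.647 and 0.518 FPKM in ES and 4.30 and 31.0 FPKM in EB) showed the same inequality. Igfbp5 was called but not in 1 fit, with an adjusted p of 0.0549 leaving out ES knockout replicate 1. Col3a1 was called but not in 2 fits, with adjusted p of 0.0759 leaving out ES knockout replicate 1 and 0.0758 leaving out ES knockout replicate 2. Pou5f1, T, Krt18 and Fgf5 differed by less than 4-fold between the EB libraries.

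**Figure D2:**
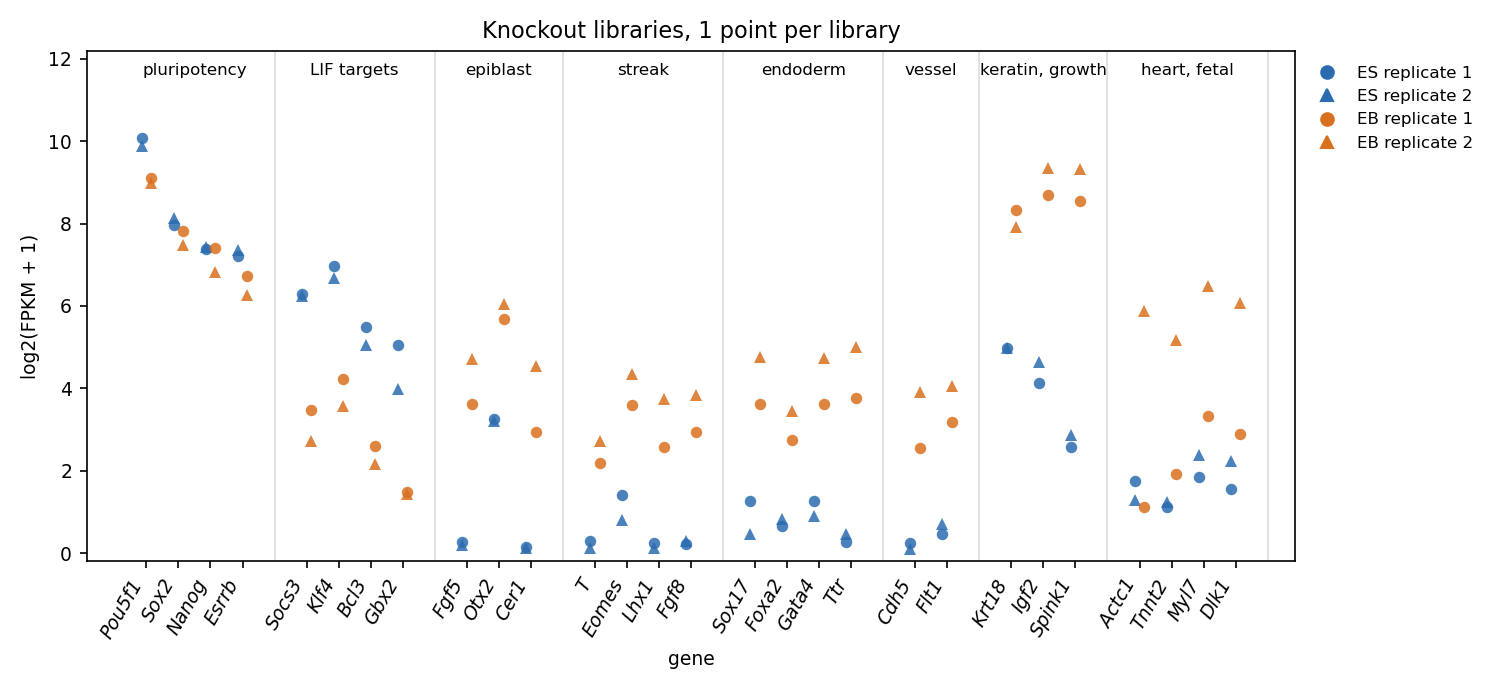
Expression of 28 genes in each of the 4 knockout libraries as log2(FPKM + 1), with ES libraries as blue and EB libraries as orange points, replicate 1 as a circle and replicate 2 as a triangle. The pluripotency genes Pou5f1, Sox2 and Nanog stay near their ES level, the LIF targets fall, lineage genes rise from near 0, and Actc1, Tnnt2, Myl7 and Dlk1 are high only in EB replicate 2.

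The matrix and mesenchyme genes rose in part. Shares higher were 48% for collagen and matrix, 33.3% for fibroblast and feeder markers and 45.5% for cadherins and epithelial-mesenchymal transition, against 18.3% over all genes. Shares lower were 12%, 6.67% and 4.55%, against 13.1%. Of 25 collagen and matrix genes, 12 rose and 3 fell, and the median was 0.71, and 7 rose without either ES or EB knockout replicate 2. The collagen chaperone gene Serpinh1 measured 27.6 and 35.0 FPKM in ES and 107 and 158 FPKM in EB (2.03 ± 0.20 SE, adjusted p = 0.00154). Col1a2, a chain of type I collagen, measured 0.437 and 0.395 FPKM in ES and 7.34 and 5.02 FPKM in EB (2.32 ± 0.25 SE, adjusted p = 0.00198). Col4a1, a chain of basement membrane collagen, measured 12.7 and 7.30 FPKM in ES and 46.9 and 71.6 FPKM in EB (2.47 ± 0.48 SE, adjusted p = 0.0111). The intermediate filament gene Vim measured 62.8 and 33.9 FPKM in ES and 95.5 and 237 FPKM in EB (1.68 ± 0.44 SE, adjusted p = 0.0282). The call of Col4a1 was lost with adjusted p of 0.0546 leaving out ES knockout replicate 2 and 0.0659 leaving out EB knockout replicate 2. That of Vim was lost with 0.125 leaving out ES knockout replicate 2, 0.103 leaving out EB knockout replicate 2, 0.0537 leaving out EB wild type replicate 1 and 0.0536 leaving out EB wild type replicate 2. P4ha1, which hydroxylates collagen prolines, measured 6.91 and 12.3 FPKM in ES and 68.2 and 64.7 FPKM in EB (2.72 ± 0.27 SE, adjusted p = 0.00156). Lama1 (-1.18) and Nid2 (-0.75), basement membrane genes expressed by ES cells, fell. Of 15 fibroblast and feeder markers, 5 rose and 1 fell; the rises numbered 2 without ES or EB knockout replicate 2, 3 without ES knockout replicate 1 or either EB wild type library, and 9 without EB knockout replicate 1. Among the cadherins and genes of epithelial-mesenchymal transition 10 of 22 rose and 1 fell, and 6 rose without ES knockout replicate 2. Cdh2, N-cadherin, measured 1.18 and 0.552 FPKM in ES and 9.22 and 20.0 FPKM in EB (2.99 ± 0.34 SE, adjusted p = 0.00208). Zeb2, a repressor of E-cadherin, measured 0.120 and 0.252 FPKM in ES and 3.40 and 6.70 FPKM in EB (2.30 ± 0.28 SE, adjusted p = 0.00259). Twist2 rose as well (2.12). Cdh1, E-cadherin itself, remained over 100 FPKM in every library and fell (log2 change of -0.68), with an adjusted p of 0.0553 leaving out EB knockout replicate 2 as the only loss among those fits. The epithelial claudin genes Cldn6 (1.19) and Cldn7 (1.10) rose.

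Simple keratins and part of the placental genes rose. Krt18 measured 30.7 and 30.5 FPKM in ES and 320.2 and 243 FPKM in EB (3.15 ± 0.17 SE, adjusted p = 0.000412) and its partner Krt8 33.5 and 30.9 FPKM in ES and 303 and 234 FPKM in EB (3.01 ± 0.33 SE, adjusted p = 0.00200). Here EB knockout replicate 1 was the higher EB library. Of 18 trophoblast genes, 10 rose and none fell, with a median of 1.37; Plac1 (2.11), Krt7 (2.11) and Krt19 (1.87) were among them. The list shares Eomes, Cdx2 and Hand1 with the streak list, and its members are also expressed by other epithelia and by mesoderm. Of 27 imprinted genes, 13 rose, 48.1% against 18.3% over all genes, with a median of 0.80. Igf2, the fetal growth factor, was the most abundant of the large rises, at 16.5 and 24.0 FPKM in ES and 417 and 657 FPKM in EB (4.65 ± 0.27 SE, adjusted p = 0.000412). H19, the noncoding RNA from the same imprinted domain, measured 26.6 and 30.8 FPKM in ES and 502 and 227 FPKM in EB (3.51 ± 0.33 SE, adjusted p = 0.00134), and the paternally expressed genes Peg3 and Peg10 had log2 changes of 2.95 and 1.45. Phlda2, a maternally expressed inhibitor of placental growth, fell, with 146 and 259 FPKM in ES and 54.5 and 56.8 FPKM in EB (-1.79 ± 0.27 SE, adjusted p = 0.00511).

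The largest rise among the genes that met the rule for naming was of Spink1, a serine protease inhibitor made by pancreas and early gut endoderm, at 5.01 and 6.35 FPKM in ES and 376 and 646 FPKM in EB (6.22 ± 0.34 SE, adjusted p = 0.000412). Ctla2a, a cysteine protease inhibitor gene with a close paralogue that may share reads, measured 0 and 0.106 FPKM in ES and 37.5 and 40.4 FPKM in EB (5.25 ± 0.29 SE, adjusted p = 0.000412). Amot, which encodes the YAP-binding protein angiomotin, measured 1.39 and 1.79 FPKM in ES and 60.0 and 134 FPKM in EB (5.14 ± 0.34 SE, adjusted p = 0.000501). Each was under 7 FPKM in both ES libraries and over 30 FPKM in both EB libraries. The other genes of the 15 largest rises were Igf2, Cyp26a1, Hapln1 (4.31), Pga5 (4.12), Clic6 (4.09), Ttr, Fgf5, Ctsh (3.85), Prss12 (3.82), Car4 (3.76), Pmp22 (3.75) and Apoa1. Pga5, a pepsinogen gene, measured 1.06 and 2.30 FPKM in ES and 33.8 and 58.3 FPKM in EB. In all 15 both EB libraries were above both ES libraries, and every call held when any single library was left out.

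Genes of the retinoic acid pathway changed in both directions, 58.3% higher and 25% lower, against 18.3% and 13.1% over all genes. Cyp26a1, the enzyme that breaks retinoic acid down and a direct target of its receptors, measured 0.605 and 0.0896 FPKM in ES and 18.9 and 41.7 FPKM in EB (4.46 ± 0.43 SE, adjusted p = 0.00141). Of 12 genes of the pathway, 7 rose and 3 fell, with 5 falls without EB knockout replicate 2. Rbp4, Rdh10 (1.03) and Aldh1a3 (1.05), which carry retinol or make retinoic acid, rose, and the receptor genes Rarg (102 and 72.4 FPKM in ES and 22.9 and 24.5 FPKM in EB, -1.82 ± 0.17 SE, adjusted p = 0.00135) and Rara (-0.87) fell, with the target Stra8 (-1.53).

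Some programmes hardly appeared. Of 39 clustered Hox genes 35 were under 1 FPKM in all 4 libraries, and 2 were described, Hoxb2 and Hoxb4, both higher. Hoxb2 measured 0.0504 and 0.0330 FPKM in ES and 1.36 and 2.88 FPKM in EB (1.54 ± 0.25 SE, adjusted p = 0.00615). Hoxb4 measured 0 and 0.0686 FPKM in ES and 1.17 and 1.76 FPKM in EB (1.24 ± 0.19 SE, adjusted p = 0.00482). Of 31 neural genes 25 were not described, and the 6 that were had 2 rises, Irx3 (1.84) and Msx1, a gene also of mesoderm, and 1 fall, En2 (-0.98, lost with adjusted p of 0.148 leaving out ES knockout replicate 1, 0.106 leaving out EB knockout replicate 1 and 0.0973 leaving out EB knockout replicate 2). Pax6 and Nes read 1.09, 0.213, 0.342 and 0.442 FPKM and 6.59, 5.63, 3.46 and 7.75 FPKM in the order ES 1, ES 2, EB 1 and EB 2. The single immune marker described was Cd68, an endosomal protein gene that many cells express (-1.02 ± 0.28 SE, adjusted p = 0.0352). Its call was lost with adjusted p of 0.16 leaving out ES knockout replicate 1, 0.0539 leaving out ES knockout replicate 2, 0.158 leaving out EB knockout replicate 2, 0.0621 leaving out EB wild type replicate 1 and 0.0619 leaving out EB wild type replicate 2.

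**Figure D3:**
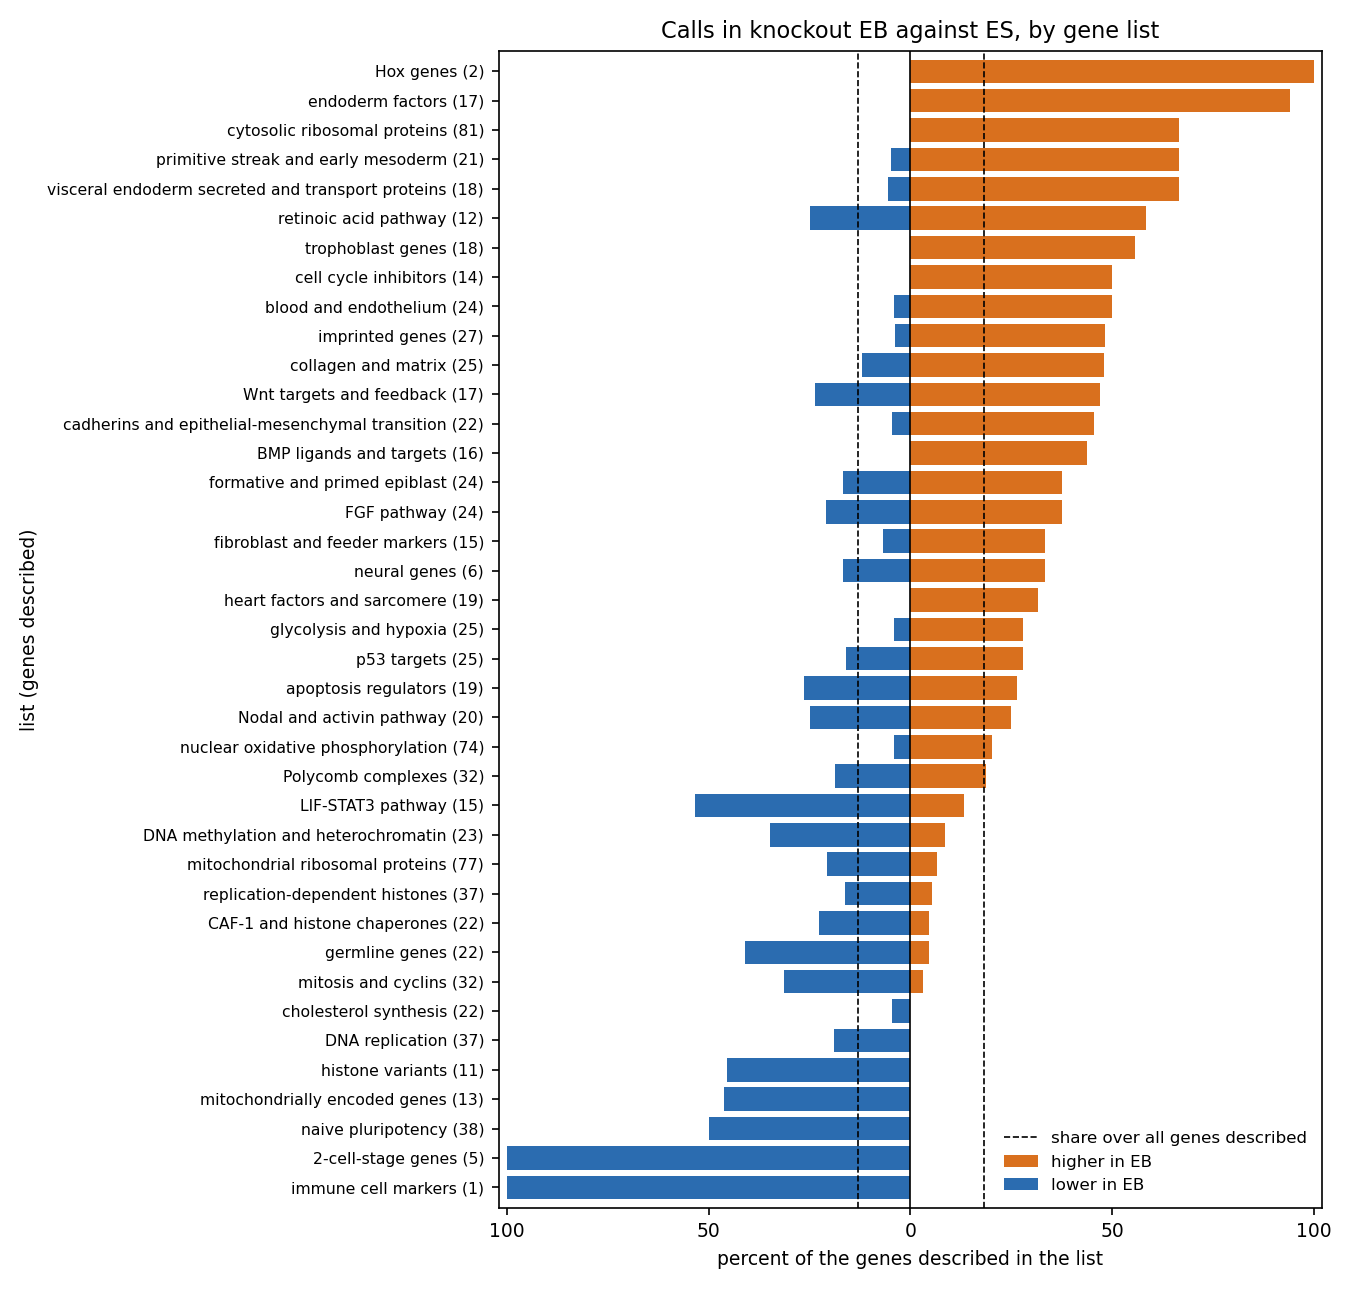
Percent of the genes described in each of 39 lists that were called higher (orange, to the right) and lower (blue, to the left) in knockout EB, with the number described in brackets. Dashed lines mark 18.3% and 13.1%, the shares over all 13891 genes; endoderm factors (16 of 17 higher) and ribosomal proteins (54 of 81 higher) reach far right, and LIF-STAT3 genes (8 of 15 lower) far left.

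Genes of the cytosolic ribosome rose as a group. Of 81 ribosomal protein genes, 54 were higher and none lower, with a median log2 change of 0.62. Under the scaling to the same total and under quantile normalization the list's median was 0.50 and 0.24. Rpl26 measured 1549 and 1543 FPKM in ES and 3536 and 3124 FPKM in EB (1.10 ± 0.19 SE, adjusted p = 0.00737) and Rpl23a 2365 and 2399 FPKM in ES and 5230.1 and 4829 FPKM in EB (1.08 ± 0.15 SE, adjusted p = 0.00422), with no overlap. These genes made up 19.6% and 19.7% of all FPKM in knockout ES and 29.8% and 27.3% in knockout EB, against 22.6% and 19.4% in wild type EB. The number of rises fell to 16, 18, 16 and 30 without ES replicates 1 and 2 and EB replicates 1 and 2. Ribosomal protein genes have many processed pseudogenes, and how the authors' counting shared reads among them is not given in the sources used here. In the list of mitochondrial ribosomal proteins 5 of 77 genes were higher and 16 lower, with a median of -0.09. Their shares were 6.49% and 20.8%, against 18.3% and 13.1% over all genes. Without ES knockout replicates 1 and 2 the falls numbered 2 and 9, and 4 without either EB knockout library. The rises numbered 1 without EB knockout replicate 2 and 2 without each other knockout library.

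Of 74 nuclear genes of oxidative phosphorylation, 15 rose and 3 fell. The share of rises, 20.3%, was near the 18.3% over all genes, with rises numbering 8 without either ES knockout library and 6 and 9 without EB knockout replicates 1 and 2. Of 13 mitochondrially encoded genes 6 fell (2 without ES replicate 1 or 2 or EB replicate 2 of the knockout), led by mt-Cytb and mt-Nd1. The first measured 1244 and 1474 FPKM in ES and 446 and 441 FPKM in EB (-1.61 ± 0.21 SE, adjusted p = 0.00317). mt-Nd1 measured 2149.9 and 1939.9 FPKM in ES and 872 and 643 FPKM in EB (-1.45 ± 0.22 SE, adjusted p = 0.00508). In the glycolysis and hypoxia list 7 of 25 were higher and 1 lower, 28% and 4%, against 18.3% and 13.1% over all genes. Pfkm, the muscle phosphofructokinase, measured 10.4 and 13.3 FPKM in ES and 35.8 and 33.4 FPKM in EB (1.47 ± 0.15 SE, adjusted p = 0.00157). Rises numbered 11 without ES knockout replicate 2, 4 without ES replicate 1 or EB replicate 2 and 3 without EB replicate 1. Pdk1, which restrains entry of pyruvate into mitochondria, rose, with 52.9 and 57.2 FPKM in ES and 114 and 98.5 FPKM in EB (0.93 ± 0.16 SE, adjusted p = 0.00758).

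In the cell cycle lists, the calls were rises for the inhibitors and mainly falls for genes of replication and mitosis. Most replication genes, 30 of 37, were not called, and the median log2 change of that list was -0.16. Of 37 DNA replication genes 7 fell and none rose, 18.9% lower against 13.1% over all genes (2 without ES knockout replicate 1 or EB knockout replicate 2, 4 without EB knockout replicate 1), and Mcm5, a helicase subunit gene, measured 182 and 166 FPKM in ES and 96.5 and 93.0 FPKM in EB (-0.87 ± 0.09 SE, adjusted p = 0.00185). Of 32 genes of mitosis and the cyclins 10 fell, 31.2%, and 1, Bub1, rose; the falls numbered 5 without ES knockout replicate 1 and 6 without either EB knockout library. Ccne1, cyclin E1, measured 197 and 145 FPKM in ES and 64.3 and 68.1 FPKM in EB (-1.34 ± 0.16 SE, adjusted p = 0.00229). Ccnd1, cyclin D1, measured 40.5 and 44.5 FPKM in ES and 17.8 and 21.6 FPKM in EB (-1.08 ± 0.17 SE, adjusted p = 0.00531). The mitotic genes Cdc20 and Plk1 fell as well (-0.83 and -0.64). Of 14 cell cycle inhibitors 7 rose, against 18.3% over all genes, and none fell; the antiproliferative gene Btg1 measured 4.35 and 5.03 FPKM in ES and 15.4 and 16.1 FPKM in EB (1.56 ± 0.13 SE, adjusted p = 0.00102) and held in every fit, and the rises numbered 4, 4, 2 and 3 without ES replicates 1 and 2 and EB replicates 1 and 2 of the knockout. Cdkn1a, which encodes p21, measured 51.6 and 47.4 FPKM in ES and 70.0 and 81.0 FPKM in EB (0.60 ± 0.16 SE, adjusted p = 0.0304). Its call was lost with adjusted p of 0.0791 leaving out ES knockout replicate 1, 0.115 leaving out ES knockout replicate 2, 0.0609 leaving out EB knockout replicate 1 and 0.145 leaving out EB knockout replicate 2. Cdkn1c, the imprinted gene of p57, measured 27.9 and 51.8 FPKM in ES and 107 and 98.0 FPKM in EB (1.40 ± 0.32 SE, adjusted p = 0.0189). This call too was lost, with adjusted p of 0.0758 leaving out ES knockout replicate 1, 0.082 leaving out EB knockout replicate 1 and 0.0724 leaving out EB knockout replicate 2. In both genes the EB libraries lay above the ES libraries. Among 25 p53 targets 7 rose and 4 fell (rises of 2, 2 and 0 without ES knockout replicate 2, EB knockout replicate 1 and EB knockout replicate 2), and among 19 apoptosis regulators 5 rose and 5 fell. Those rises numbered 3 without ES knockout replicate 2 or either EB wild type library and 1 without EB knockout replicate 2, and the falls 3 without ES knockout replicate 1 or EB knockout replicate 2. Shares in the p53 list were 28% higher and 16% lower, and in the apoptosis list 26.3% each, against 18.3% and 13.1% over all genes. The median log2 changes of these 2 lists were -0.003 and -0.02. The proapoptotic genes Bax (-0.60) and Bak1 (-1.11) fell, and Xiap, an inhibitor of caspases, rose (1.30).

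Of 32 Polycomb genes 6 rose and 6 fell, 18.8% each, against 18.3% higher and 13.1% lower over all genes, so the shares were near those of all genes. Epop, an ES-enriched partner of PRC2, measured 484 and 360.4 FPKM in ES and 79.3 and 78.3 FPKM in EB (-2.39 ± 0.18 SE, adjusted p = 0.000791), and the PRC2 genes Jarid2 and Eed fell with log2 changes of -0.99 and -0.79. Pcgf5 and Yaf2, of variant PRC1, rose by 1.20 and 1.43. The rises numbered 2 without either ES knockout library and 3 without either EB knockout library, and the falls 3 without EB knockout replicate 1. Of 23 genes of DNA methylation and heterochromatin 2 rose and 8 fell, and 1 rose without ES knockout replicate 1. Tet1, the hydroxylase of methylcytosine, measured 112 and 111 FPKM in ES and 36.5 and 30.2 FPKM in EB (-1.71 ± 0.14 SE, adjusted p = 0.00102). Zfp57, which guards imprints, measured 165 and 131 FPKM in ES and 77.0 and 63.6 FPKM in EB (-1.06 ± 0.15 SE, adjusted p = 0.00377). Suv39h1, a heterochromatin methyltransferase, rose, with 6.63 and 5.15 FPKM in ES and 23.1 and 32.3 FPKM in EB (2.05 ± 0.19 SE, adjusted p = 0.00139). Shares higher and lower were 8.7% and 34.8% in the DNA methylation list and 4.55% and 22.7% in the CAF-1 and chaperone list. Over all genes they were 18.3% and 13.1%. Of 22 CAF-1 and histone chaperone genes 1 rose and 5 fell, among them Hira (-0.62) and Cabin1 (-0.90), which act in replication-independent deposition; the falls numbered 3 without ES replicate 1 or either EB replicate of the knockout. Of 11 histone variant genes 5 fell, of which H2afz and H3f3b, a gene of H3.3, held in every fit; the falls numbered 3 without either ES knockout library and 2 without either EB knockout library. H2afz measured 1326 and 1219 FPKM in ES and 700.3 and 766 FPKM in EB (-0.79 ± 0.11 SE, adjusted p = 0.00359). H3f3b measured 497 and 531 FPKM in ES and 314 and 329.6 FPKM in EB (-0.67 ± 0.09 SE, adjusted p = 0.00388). Of 37 replication-dependent histone genes 2 rose and 6 fell, 16.2% lower against 13.1% over all genes. Without ES knockout replicates 1 and 2 the falls numbered 4 and 1, and without EB knockout replicates 1 and 2 they numbered 4 and 2. The rises numbered 0 without ES knockout replicate 2 and 1 without each other knockout library. Replication-dependent histone transcripts lack poly(A) tails, and the labels describe the libraries as mRNA.

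The 5 Zscan4 genes described, markers of a 2-cell-like state, and some germline genes were called lower. Germline genes were 40.9% lower and 4.55% higher by call, against 13.1% and 18.3% over all genes. Of 22 germline genes described 9 fell, 1 rose and 12 were not called (falls of 2 and 3 without ES knockout replicate 1 and EB knockout replicate 2), with Tex101 (4.62 and 5.06 FPKM in ES and 0.691 and 1.11 FPKM in EB, -1.63 ± 0.18 SE, adjusted p = 0.00202) and Stra8 the falls that held in every fit. The summed level of all germline genes in the table was 559.5 and 516 FPKM in ES and 627 and 511 FPKM in EB, which overlap. All 5 members of the Zscan4 family described fell, with log2 changes from -2.62 to -1.59. Zscan4f measured 15.0 and 3.79 FPKM in ES and 0.174 and 0.720 FPKM in EB (-2.62 ± 0.54 SE, adjusted p = 0.0131). ES knockout replicate 1 was the higher ES library for each, members share sequence and may share reads, and 1 was called without EB knockout replicate 1 and 3 without EB knockout replicate 2.

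In wild type cells 4597 of the same genes were higher in EB and 3702 lower, 33.1% and 26.7%. Both contrasts used the same fit and separate libraries. Over all genes fitted, 17.1% were higher and 12% lower in knockout and 36.1% and 24.8% in wild type. Of them, 2077 were higher in both genotypes, 78.7% of the knockout rises and 37.2% of the wild type rises, and 1343 were lower in both, 72.7% of the knockout falls and 35.1% of the wild type falls. Among the genes described, 1983 rose in both, with a median log2 change of 0.99 in knockout and 1.62 in wild type. The 1323 described that fell in both had medians of -0.84 and -1.18. These medians are descriptions of genes selected by their calls. The difference of the changes was tested by the interaction term, and 1936 genes had a higher and 2194 a lower change in knockout, 13.9% and 15.8% of those described. After scaling to the same total these counts were 1414 and 2901, and after quantile normalization 2439 and 1714; the median difference over all genes moved from -0.05 to -0.22 and 0.10. Leaving out EB knockout replicate 1 gave 1108 and 1226.

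The knockout change of the pluripotency genes was the smaller. Pou5f1 had a log2 change of -4.68 in wild type cells, with 1298 and 1233 FPKM in ES and 35.3 and 65.9 FPKM in EB of wild type, and the difference of the changes was 3.75 ± 0.36 (SE, adjusted p = 0.00209). Zfp42, another ES marker, measured 536 and 580.4 FPKM in ES and 359 and 264 FPKM in EB of knockout and 543 and 566 FPKM in ES and 12.9 and 23.4 FPKM in EB of wild type, a difference of 4.06 ± 0.37 (SE, adjusted p = 0.00193). Nanog and Sox2 differed by 3.72 and 2.08. Among the genes that met the rule for naming, the largest such differences beside those of Pou5f1, Zfp42 and Spink1 were of Khdc3, an oocyte and ES cell gene (4.05), Rbmxl2 (4.03), Nr0b1, whose product DAX1 is an ES cell nuclear receptor (3.96), L1td1, an RNA-binding protein gene (3.90), and Rpl10l (3.84); Rbmxl2 and Rpl10l are retrocopies that may share reads with their parent genes. L1td1 measured 519.7 and 429 FPKM in ES and 233 and 214 FPKM in EB of knockout and 483 and 484 FPKM in ES and 11.1 and 18.6 FPKM in EB of wild type. Within knockout the log2 changes of these 5 genes ran from -1.90 (Rpl10l) to -1.08 (L1td1), and all 5 lost that call without ES knockout replicate 1, with adjusted p from 0.0502 (Rpl10l) to 0.0996 (Rbmxl2), and without EB knockout replicate 2, with adjusted p from 0.0521 (Rpl10l) to 0.154 (Rbmxl2). Of the 38 naive genes 31 had a higher (less negative) change in knockout and none a lower one. In the LIF pathway the change in knockout was higher for 3 of 15 genes, Tfcp2l1 (3.01), Pim3 (1.10) and Gbx2 (1.62), and lower for 1, Jak2 (-0.83). Over all genes described, the shares were 13.9% higher and 15.8% lower. The call of Gbx2 was lost in 7 of the 8 fits that left out a library, with adjusted p from 0.0636 to 0.135, and that of Jak2 in all 8, with adjusted p from 0.0533 to 0.0944. Without EB knockout replicate 2 the count with a higher change was 5 of the 15. Socs3 had a log2 change of -3.47 in wild type and of -3.17 in knockout, a difference of 0.31 ± 0.34 (SE, adjusted p = 0.528) that did not pass the test.

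Rises that wild type cells made were smaller in knockout for many genes, among them mesoderm and growth genes. Igf2 measured 2.22 and 3.50 FPKM in ES and 2923 and 2982 FPKM in EB of wild type, a difference of -4.95 ± 0.38 (SE, adjusted p = 0.00184). Tnni1 measured 0.132 and 0.485 FPKM in ES and 373 and 301 FPKM in EB of wild type, a difference of -4.72 ± 0.81 (SE, adjusted p = 0.00770), and Hbb-bh1, with 0 and 0.268 FPKM in ES and 959 and 198 FPKM in EB of wild type, -5.39 ± 1.00 (SE, adjusted p = 0.00945). Hand1, Krt18 and Serpinh1 rose in both genotypes and differed by -2.85, -2.32 and -3.23. Further differences of this kind given by the rule for naming were of Col3a1 (-5.26), Igfbp5 (-4.26, not called when any single wild type library was left out, with adjusted p from 0.0518 without ES wild type replicate 2 to 0.062 without EB wild type replicate 2), Myl4, a fetal myosin light chain gene (-4.76), Gyg, the primer of glycogen synthesis (-4.45), and Ece1, the endothelin-converting enzyme gene (-3.70). Ece1 measured 109 and 179.8 FPKM in ES and 435 and 774 FPKM in EB of knockout and 28.9 and 24.4 FPKM in ES and 2156 and 1002 FPKM in EB of wild type. The knockout ES libraries were thus above the wild type ES libraries and the knockout EB libraries below the wild type EB libraries. In the heart list 18 of 19 genes had a lower change in knockout, in blood and endothelium 13 of 24, in collagen and matrix 12 of 25 and among imprinted genes 15 of 27. Without EB wild type replicate 2 these were 11 in the heart list, 7 in collagen and matrix and 9 among imprinted genes, and without EB knockout replicate 1 there were 7 in collagen and matrix. Among the endoderm factors 5 of 17 had a lower and 2, Otx2 and Epcam (0.66), a higher change in knockout. Over all genes described, 15.8% had a lower and 13.9% a higher change. The call of Epcam was lost in 6 of the 8 fits that left out a library, with adjusted p from 0.056 to 0.0918. Changes of Sox17 (-0.88), Fgf8 (-0.38), Flt1 (-0.62) and Cyp26a1 (0.58) were not called different; the test does not show them to be equal.

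Other rises were larger in knockout cells. Of genes called higher in knockout with a higher change there, 15 were also higher in wild type, 201 not called and 68 lower. Spink1 measured 26.6 and 38.3 FPKM in ES and 124 and 72.5 FPKM in EB of wild type, so its change in knockout was higher by 4.68 ± 0.48 (SE, adjusted p = 0.00240). Pga5 measured 3.60 and 1.79 FPKM in ES and 4.77 and 6.88 FPKM in EB of wild type, a difference of 3.21 ± 0.54 (SE, adjusted p = 0.00698). Otx2 measured 11.5 and 9.83 FPKM in ES and 21.7 and 20.7 FPKM in EB of wild type, a difference of 1.70 ± 0.21 (SE, adjusted p = 0.00359). Lefty2 rose in knockout, with 26.5 and 30.2 FPKM in ES and 64.7 and 71.8 FPKM in EB (1.24 ± 0.27 SE, adjusted p = 0.0164). Without some libraries its adjusted p was 0.078 leaving out ES knockout replicate 1, 0.057 leaving out EB knockout replicate 1 and 0.0819 leaving out EB knockout replicate 2. It fell in wild type (a change of -1.98), and the difference was 3.22 ± 0.38 (SE, adjusted p = 0.00330). Ribosomal protein genes had a higher change in knockout for 43 of 81, against 13.9% over all genes described, and a lower one for none, with a median change of -0.08 in wild type. This count rested on single libraries: it was 9 and 10 without ES knockout replicates 1 and 2, and 5 and 22 without EB knockout replicates 1 and 2. Without ES wild type replicates 1 and 2 it was 4 and 9, and without EB wild type replicates 1 and 2 it was 65 and 26. Over all genes, 68 were higher in knockout EB and lower in wild type EB, and 40 the reverse.

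**Figure D4:**
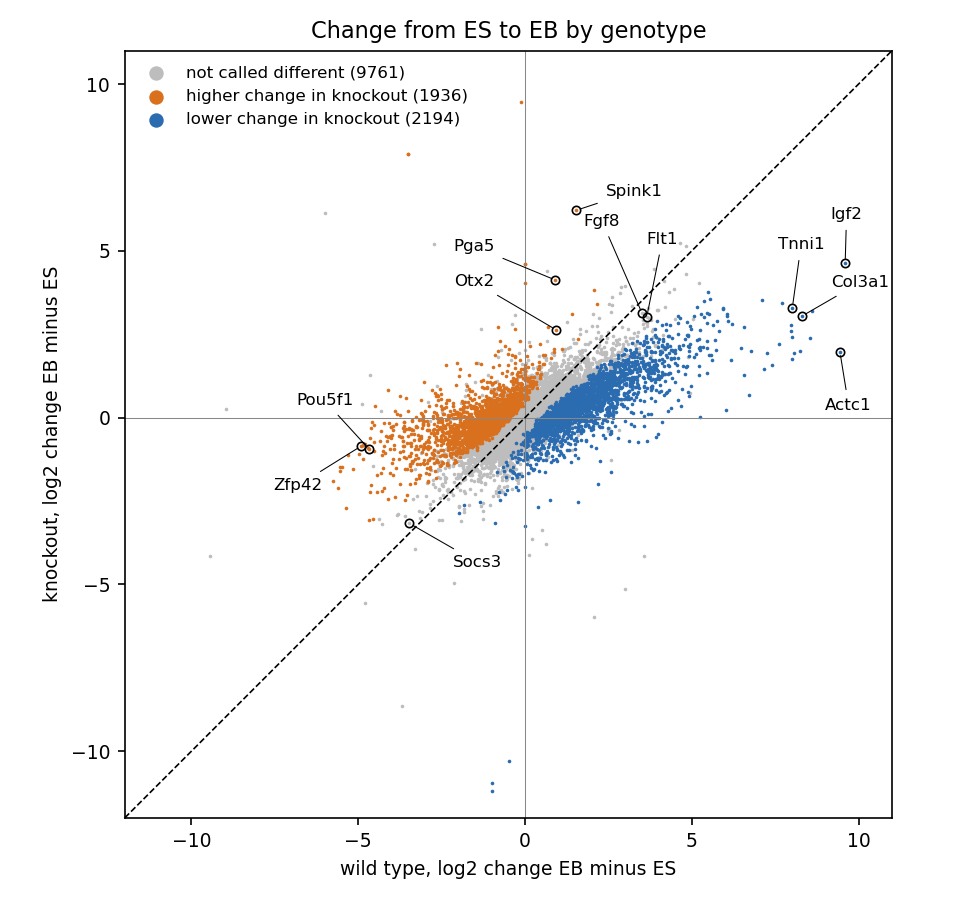
Log2 change from ES to EB in wild type (x axis) against that in knockout (y axis) for the 13891 genes, with genes whose changes differed (adjusted p under 0.05) in orange where higher and in blue where lower in knockout, and the diagonal of equal change dashed. Pou5f1 and Zfp42 lie above the diagonal at strongly negative wild type changes, Igf2, Tnni1 and Col3a1 below it, and Socs3, Fgf8 and Flt1 near it.

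The histone marks of knockout cells were read from 1 ChIP library per mark and state, so these values have no replicate check and no test. H3K27me3, set by PRC2, marks repressed genes, and H3K4me3 marks active or poised promoters; the authors deposited them as values on promoters, but they rise with the length of the locus, so the window behind a value is unsure and only ratios of the same gene were used. At the 63 protein-coding genes whose RNA fell at least 4-fold, the median log2 ratio of H3K27me3 in EB over ES was 1.14, and 57.1% of them had at least 2-fold more, against a median of 0.04 and 2.62% over all 20462 genes of the ChIP table. In wild type cells the same genes had a median of 1.12. Socs3 read 0.160 in ES and 5.74 in EB, Bcl3 0.614 in ES and 6.11 in EB and Mras 5.71 in ES and 25.8 in EB. Pou5f1, whose RNA was lower by under 2-fold, read 0.133 in ES and 2.45 in EB, and Nanog 0.400 in ES and 0.720 in EB.

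H3K4me3 was higher in EB at genes whose RNA rose. At the 210 genes that rose at least 4-fold its median log2 ratio was 0.53, with 17.6% at least 2-fold higher, against a median of 0 and 0.557% over all genes. In wild type cells it was 1.25 for the same genes. Fgf5 read 3.66 in ES and 14.1 in EB, Cyp26a1 3.20 in ES and 10.0 in EB and Eomes 6.78 in ES and 23.9 in EB. H3K27me3 at these 210 genes changed little in knockout cells, with a median of -0.16, and with loci under 10 kb alone it was 0.12, the other sign. In wild type cells the median for the same genes was -0.54, with 24.3% at least 2-fold lower and 9.52% at least 2-fold higher. The knockout shares were 0.95% and 1.90%. With loci under 10 kb alone the wild type median was -0.01. At the large falls H3K4me3 had a median of -0.41 in knockout, and -0.15 with loci under 10 kb alone. The wild type medians for these genes were -0.67 and -0.08.

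**Figure D5:**
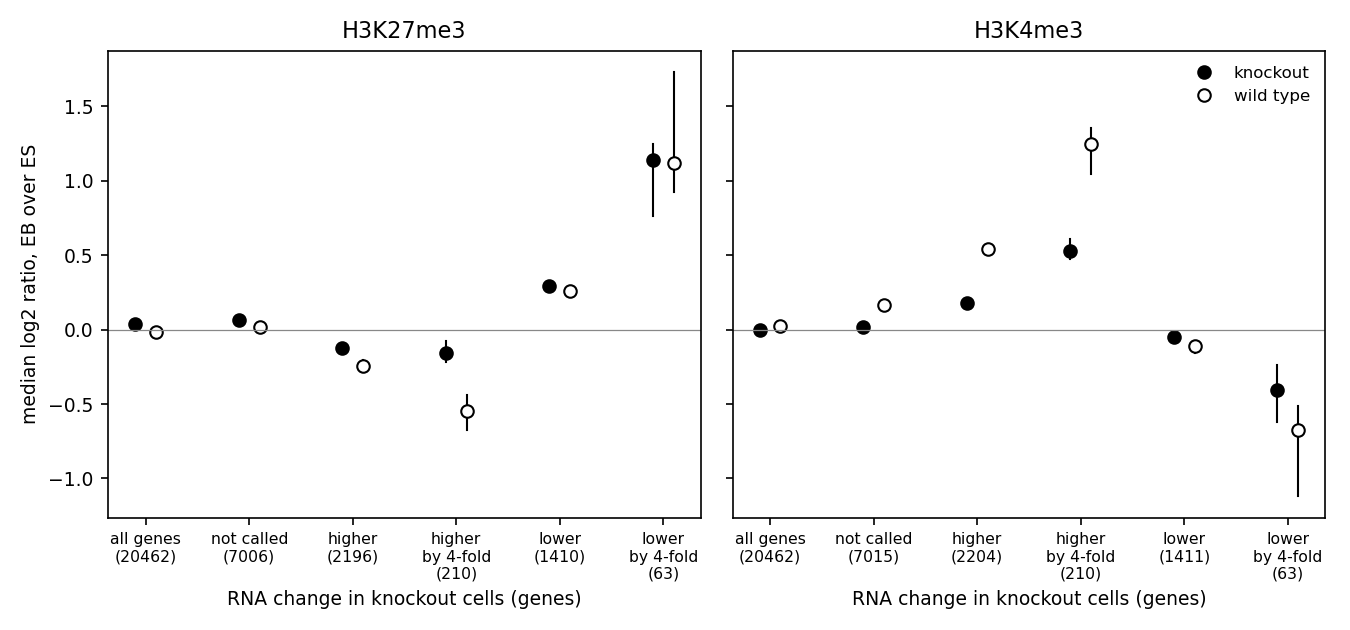
Median log2 ratio of the deposited ChIP value in EB over ES, with 1 added to each, in knockout (filled) and wild type (open) cells, by class of RNA change in knockout cells; lines are 95% order-statistic intervals of the median over genes, not over replicates. H3K27me3 is highest at the 63 genes whose RNA fell at least 4-fold, and H3K4me3 at the 210 that rose at least 4-fold.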

How the data were processed

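RNA-seq gave 8 libraries, 2 each of ES and EB in wild type and knockout cells. Per the file headers the authors deposited an FPKM value per gene and library. The submitters' processing notes name STAR 2.6.0a, Cufflinks 2.2.1 and the build mm10 without saying what each was used for. Of 53560 genes and loci, 120 second entries of a symbol were left out, and the 15428 genes that reached 1 FPKM in 2 or more of the 8 libraries entered a fit by limma 3.58.1 (R 4.3.3) on log2(FPKM + 1). The fit had a mean per group, a moderated variance with a trend and no block, and left 4 residual degrees of freedom. Tests were two-sided, and a fold change on this scale understates the change of low genes. An SE is that of the fitted change between groups of n = 2. The deposited ChIP values are a signal per gene, from 1 library each, and got 1 added before log2 ratios; a value was at hand for 92.5% of the 11498 protein-coding genes described.

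The 39 lists of 1104 symbols, the members and the tests were chosen with earlier results of these data known. Genes named by rule were the 15 largest rises and the 15 largest falls among called genes (at least 10 FPKM in the higher group, no overlap of libraries, a locus of at least 500 bases, and no unnamed gene model), 31 anchor genes of the lineages, up to 4 called members of each list with the smallest adjusted p, the 8 largest differences of changes each way and the 8 largest ratios between the knockout EB libraries. Not all of these are printed, some genes are not reported here, and 46 genes outside the rule were named after their values were seen. The alternatives changed the pseudocount, the filter, the scaling, the variance model, the block and the libraries in the fit. A comparison of promoter sequence between classes was void, since RefSeq gave a promoter for 78.3% of the higher genes. The fit was tested on simulated data for the knockout contrast over 15428 genes. It called 34 of 100 genes changed by 1 on the log2 scale, 67 of 100 changed by 2 and 9 of 15228 unchanged ones. Far fewer genes were changed there than the 4487 called among the genes fitted, and simulated falls were cut at the floor of the scale. These shares therefore do not give the sensitivity of the fit for the real data. Python 3.11.15 and pandas 2.3.3 were used for the tables.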

Additional observations from a re-analysis of the deposited data

Results flagged for a closer look

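The values below were picked out because the change from ES to EB differed between knockout and wild type by a test of the difference itself, limma's interaction term with Benjamini-Hochberg adjustment over all fitted genes. Of the genes described, 1936 had a higher and 2194 a lower change in knockout.

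ES cell genes had the less negative change in knockout: the difference on the log2 scale was 3.75 for Pou5f1, 4.06 for Zfp42, 3.72 for Nanog, 2.08 for Sox2, 4.05 for Khdc3, 3.96 for Nr0b1 and 3.90 for L1td1. The retrocopies Rbmxl2 (4.03) and Rpl10l (3.84), which may share reads with their parent genes, had a less negative change as well. Differences above 0 were also tested for Spink1 (4.68), Pga5 (3.21), Otx2 (1.70), Epcam (0.66), Tfcp2l1 (3.01), Pim3 (1.10), Gbx2 (1.62) and Lefty2 (3.22). Genes of heart, blood, matrix and fetal growth had the smaller rise in knockout: -4.95 for Igf2, -4.72 for Tnni1, -4.76 for Myl4, -5.39 for Hbb-bh1, -3.23 for Serpinh1, -5.26 for Col3a1 and -4.26 for Igfbp5. So did Hand1 (-2.85), the keratin gene Krt18 (-2.32), Gyg (-4.45) and Ece1 (-3.70). The rise of the kinase gene Jak2 was also the smaller in knockout (-0.83). As given above, the calls for Jak2, Gbx2, Epcam and Igfbp5 did not hold in every fit that left out a library. With 2 libraries per group no group could be examined for a single library far from the rest.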

How the results depend on the processing

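No named gene that was called changed direction under any setting run. Of 171 named genes called in knockout, 144 kept the call whichever single library was left out and 161 under all other settings; of 29 named differences called, 25 and 26 did. Without a filter on FPKM 1642 genes were higher and 1099 lower in knockout EB, with 1253 higher and 1243 lower differences of change; more genes then enter the adjustment. With the knockout libraries alone in the fit, which leaves fewer residual degrees of freedom, 1427 genes were higher and 1022 lower. Leaving out 1 library gave from 1371 to 2248 higher and from 911 to 1587 lower genes, and from 1108 to 1725 higher and from 1115 to 2046 lower differences; a lone library left in a group is assumed to vary like the other groups. Replicate numbers in the labels name libraries only: the deviations of same-numbered libraries from their group means correlated across genes from 0.07 (ES and EB knockout) to 0.31 (ES knockout and ES wild type) over the 6 pairs of groups, over 0.1 in 3 of them, and a replicate block gave 2669 higher and 1949 lower genes, with 2080 and 2290 differences. With 0.1 in place of 1 added to the ChIP values, the H3K27me3 median at the large falls was 1.44 in place of 1.14. With loci under 10 kb alone it was 0.12 in place of -0.16 for H3K27me3 at the large rises, 0.68 in place of 0.53 for H3K4me3 at the large rises and -0.15 in place of -0.41 for H3K4me3 at the large falls; the cause was not tested. The median changes of the neural, p53, cholesterol, Polycomb, FGF and apoptosis lists, all near 0, changed sign under at least 1 setting. FPKM values carry no depth, so no counting error could be given, and the ChIP libraries have no replicate.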

Other observations

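Another 1537 genes were fitted but reached 1 FPKM in fewer than 2 of the knockout libraries. In wild type cells 979 of them were higher in EB and 122 lower, by the same fit. Since they were low in knockout, these genes entered the fit through the wild type libraries alone or together with 1 knockout library.

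Of the 101 genes described that differed at least 4-fold between the knockout EB libraries, 59 were higher in replicate 2 and 42 in replicate 1, and between the knockout ES libraries 55 genes did, 30 higher in replicate 2. By call, 201 genes were higher in knockout EB, not called in wild type and had a higher change in knockout, and 131 were lower in knockout EB, not called in wild type and had a lower change in knockout. The opposite case was larger: 1192 genes were higher in wild type EB, not called in knockout and had a lower change in knockout, and 1213 were lower in wild type EB, not called in knockout and had a higher one.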
